A study of Strongylocentrotus intermedius with 6 samples.

Results

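The spicule matrix genes of the sea urchin Strongylocentrotus intermedius code for secreted proteins that are occluded in the calcite of the skeleton. Rows were taken by identifier for SM50 (ZJQ010321), for PM27 (ZJQ010317), for the SM30-type gene SM30A (ZJQ010417) and for SM30 (ZJQ010416), and by the words spicule matrix protein in the authors' description, which added ZJQ010322 and a second SM30 row, ZJQ010411. This gave 6 of the 30559 gene models, and 5 of these 6 were among the 18456 models that passed the filter on low counts. The 4 genes taken by identifier were selected on their fold change between ZT12 and ZT0 in these same libraries. Their difference between times is therefore described here without a test.

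RNA-seq had been done on coelomocytes, the free cells of the body cavity fluid, of animals kept under the regime labelled LD. There were 3 libraries labelled ZT12 and 3 labelled ZT0, zeitgeber times that by convention count hours after lights-on. No genotype, allele, agent or age is given, LD applies to all 6 libraries, and the labels do not say whether a library came from 1 animal or a pool, so the p-values below rest on library-to-library spread, which may be technical. By its title the study is about day length, the clock gene Cryptochrome1 and immunity, and ZT12 against ZT0 is the comparison the labels allow.

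In echinoid embryos, as studied in S. purpuratus and related species, the skeleton is made by primary mesenchyme cells, which fuse into a syncytium, take up calcium and carbonate, and secrete a matrix of a few abundant proteins around the growing calcite. Most spicule matrix proteins carry a C-type lectin fold. SM50 is a basic protein whose knockdown in S. purpuratus embryos stops spicule growth, PM27 is related to it in sequence, and the SM30 family is acidic and, in S. purpuratus, has members used in adult spines, test and teeth as well as in embryos. Spicule matrix genes are not classical markers of coelomocytes.

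Library totals were 20229918 to 24368884 counts. edgeR's quasi-likelihood test was run on 18456 genes, and at a Benjamini-Hochberg false discovery rate of 0.05 it called 0.130% of them, 0.114% as lower at ZT12. These were 21 lower and 3 higher genes, a lean that DESeq2 (128 lower, 131 higher) and edgeR without ZT12 library 2 (12 lower, 12 higher) did not give; without ZT12 library 1 or 3 it called 0 genes (1398 and 1502 at an unadjusted p under 0.05). An unadjusted p under 0.05 was found for 1349 of the 18456 genes in either direction, and with a lower level at ZT12 for 3.87%. Of the tested genes, 6.33% had all 3 ZT12 libraries below all 3 ZT0 libraries and 5.84% had them all above. Among the most abundant genes of the coelomocyte marker list, a profilin gene (ZJQ019423, an actin regulator) averaged 6228 ± 1323 CPM in ZT12 libraries and 6204 ± 904 CPM in ZT0 libraries. A fascin gene (ZJQ020913, an actin bundler) had 3936 ± 654 and 5506 ± 1007 CPM (SD, n = 3 each, CPM being counts scaled to library size with TMM factors). Such levels do not single out coelomocytes. TIMP3 (ZJQ003888) of the matrix list averaged 8218 CPM at ZT12 and 11238 CPM at ZT0, and a trypsin gene of the gut list (ZJQ009370) 3333 and 3998 CPM. Of the 33 rows of the coelomocyte marker list, 3 were at 0 counts in all libraries and 20 were tested, of which 0 passed the edgeR test (4 at an unadjusted p under 0.05).

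SM50 had 133, 121 and 88 counts in ZT12 libraries 1, 2 and 3, against 1271, 3146 and 1868 counts in ZT0 libraries 1, 2 and 3. Scaled to library size these were 5.44, 5.75 and 4.02 CPM at ZT12, against 64.2, 134 and 92.8 CPM at ZT0. Every ZT12 library lay below every ZT0 library. ZT12 libraries averaged 5.07 ± 0.921 CPM and ZT0 libraries 97.1 ± 35.3 CPM (SD, n = 3 each), a fitted log2 fold change of -4.26, or 19.1-fold lower at ZT12. In bulk libraries such as these, fewer cells of a type and less RNA per cell cannot be told apart. PM27 had 110, 72 and 52 counts at ZT12, against 1094, 2687 and 2321 counts at ZT0. Its levels were 4.5, 3.42 and 2.38 CPM at ZT12, against 55.2, 115 and 115 CPM at ZT0. The times again did not overlap, and the fitted difference was -4.78 on the log2 scale (27.5-fold lower at ZT12).

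Both SM30 loci with reads were lower at ZT12 as well. SM30A had 3.68, 4.18 and 3.66 CPM at ZT12, against 43.9, 87 and 65.5 CPM at ZT0, a log2 fold change of -4.09 (17.1-fold lower). It varied least among ZT12 libraries, where the highest was 1.14 times the lowest. SM30 (ZJQ010416) had 2, 9 and 2 counts at ZT12, against 154, 335 and 198 counts at ZT0. This is 0.0818, 0.428 and 0.0914 CPM at ZT12 and 7.78, 14.3 and 9.84 CPM at ZT0, a fitted log2 fold change of -5.75 (53.6-fold lower), or -6.86 without ZT12 library 2. SM30 had the largest fitted difference of the 5 genes, but its ZT12 level rests on 13 counts in all, with an exact 95% Poisson interval of 6.92 to 22.2. From the summed counts alone the ZT0 rate was 56.2 times the ZT12 rate, with a 95% interval of 32.7 to 106. Intervals of this kind cover counting error only. The other SM30 row, ZJQ010411, had 0 counts in all 6 libraries, which allows a level of up to 0.0229 CPM over the summed libraries (3 counts).

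ZJQ010322, described as a spicule matrix protein by similarity to one of Hemicentrotus pulcherrimus, came in by its description and not by its values, so its test is given. It had 1, 8 and 5 counts at ZT12, against 20, 84 and 47 counts at ZT0. ZT12 libraries averaged 0.216 ± 0.17 CPM and ZT0 libraries 2.31 ± 1.29 CPM (SD, n = 3 each), with all ZT12 libraries below all ZT0 libraries. It did not pass edgeR's test (log2 fold change -3.46, SE 0.78, adjusted p = 0.218), with a log2 fold change of -2.92 without ZT12 library 1 and -4.12 without ZT12 library 2. DESeq2, which called 0.627% of its genes as lower at ZT12, called it (adjusted p = 0.0326), and its adjusted p under the other alternatives ran up to 0.818. SM30 and ZJQ010322 had under 10 counts in every ZT12 library and passed the filter on low counts only through ZT0. All 5 genes with reads had ZT12 libraries wholly below ZT0 libraries, as did 6.33% of all tested genes, and nothing is read from this count since 4 of the 5 were selected for it.

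**Figure D1:**
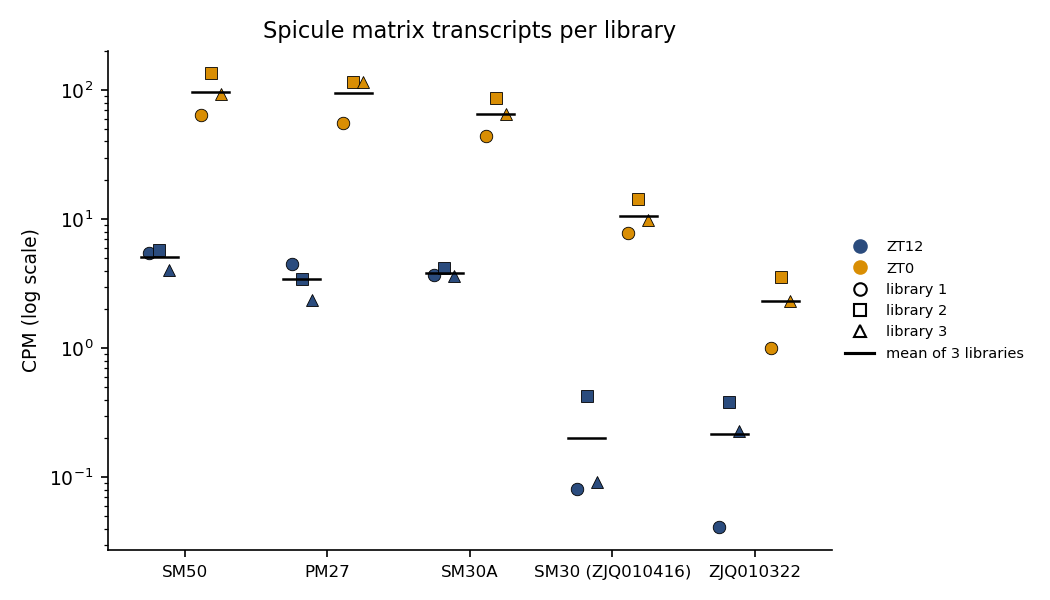
CPM (log scale) of the 5 spicule matrix genes with reads, in each of 3 ZT12 libraries (left in each pair) and 3 ZT0 libraries (right), with symbols for library number and a bar for the mean. All ZT12 points lie below all ZT0 points of the same gene, for example 4.02 to 5.75 CPM against 64.2 to 134 CPM for SM50.

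Placed among all tested genes by fitted fold change, SM30 had the 20th most negative value, PM27 the 36th, SM50 the 47th, SM30A the 53rd and ZJQ010322 the 80th. On levels per length, from the deposited FPKM values, SM50 lay at percentile 50 of the tested genes at ZT12 and at percentile 96.2 at ZT0. PM27 lay at percentile 41.9 at ZT12 and 96.5 at ZT0, SM30A at 27 and 90.3, SM30 at 1.57 and 72.3, and ZJQ010322 at 4.36 and 46.5. SM50, PM27 and SM30A were thus among the more abundant genes at ZT0 and at or below the middle at ZT12. Nothing is read from the ranks or the shifts in percentile, since the 4 genes taken by identifier were selected on this fold change.

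Together the 6 rows took 336, 298 and 227 counts in ZT12 libraries 1, 2 and 3, against 3408, 8289 and 5752 counts in ZT0 libraries 1, 2 and 3. As a share of all counts this was 0.00138%, 0.00147% and 0.00112% at ZT12, against 0.0158%, 0.0369% and 0.0263% at ZT0. The exact 95% binomial intervals of the closest libraries were 0.00131 to 0.00165% for ZT12 library 2 and 0.0152 to 0.0163% for ZT0 library 1; they cover counting error only, and nothing is read from the gap, since most of these counts come from the genes selected on this difference.

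Library 1 was the lowest of the ZT0 libraries for all 5 genes. Library 2 was the highest for SM50, SM30A, SM30 and ZJQ010322, and equal to library 3 within 1 CPM for PM27. The highest ZT0 library was 2.09 times the lowest for SM50 and PM27, 1.98 times for SM30A, 1.84 times for SM30 and 3.55 times for ZJQ010322. Among ZT12 libraries, SM50, SM30A, SM30 and ZJQ010322 were also highest in library 2, while PM27 was highest in library 1. The lowest ZT12 library was library 3 for SM50, PM27 and SM30A, and library 1 for SM30 and ZJQ010322. The ZT12 order of SM30 and ZJQ010322 rests on few counts (2, 9 and 2, and 1, 8 and 5).

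The relative amounts of the 3 main transcripts moved less than their levels. Per length, SM50 averaged 3.85 ± 0.618 FPKM at ZT12 and 69.4 ± 30.3 FPKM at ZT0, PM27 averaged 2.91 ± 0.804 and 75.7 ± 30, and SM30A averaged 1.62 ± 0.135 and 25.8 ± 10.3 FPKM (SD, n = 3 each). SM50 and PM27 did not differ beyond their spread at ZT0, where PM27 was the higher in library 3 and SM50 in libraries 1 and 2, and SM50 was the higher in all 3 ZT12 libraries. SM30A came next in every library. Of the summed FPKM of the genes, SM50 made up 42.8%, 43.9% and 43.5% in ZT12 libraries and 39.9%, 40.3% and 33.9% in ZT0 libraries. PM27 made up 39.8%, 29.3% and 28.8% at ZT12 and 38.5%, 38.6% and 47.3% at ZT0. SM30A made up 16.1%, 17.7% and 21.9% at ZT12 and 15.1%, 14.4% and 13.3% at ZT0. In shares of counts, the exact 95% binomial intervals of SM50 in all 3 ZT12 libraries covered its shares in ZT0 libraries 1 and 2. The interval of SM30A in ZT12 library 1 covered its share in all 3 ZT0 libraries. In ZT12 library 3 the SM30A interval (29 to 41.8%) lay above its shares in ZT0 libraries 1, 2 and 3 (25.5%, 24.6% and 22.9%). SM30 followed with 0.167 ± 0.164 FPKM at ZT12 and 8.3 ± 3.25 FPKM at ZT0, close to ZJQ010322 with 0.315 ± 0.246 FPKM at ZT12 and below it in 2 of 3 ZT12 libraries, while ZJQ010322 was the lowest in every ZT0 library, at 3.14 ± 1.95 FPKM.

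The ratio of SM30A to SM50, taken on FPKM values, was 0.375, 0.403 and 0.504 in ZT12 libraries and 0.379, 0.359 and 0.391 in ZT0 libraries. These ranges overlapped, so the ratio was not seen to differ between times although each level differed more than 10-fold. Among ZT0 libraries its highest value was 1.09 times the lowest, against about 2 times for either gene alone. The ratio of PM27 to SM50 was 0.928, 0.668 and 0.663 in ZT12 libraries and 0.966, 0.959 and 1.39 in ZT0 libraries. Its times did not overlap, but the gap was narrow, and the counting interval of ZT12 library 1 (0.715 to 1.2) covered the values of ZT0 libraries 1 and 2. The difference, -0.55 on the log2 scale, came in part from ZT0 library 3, without which it was -0.37.

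SM30 (ZJQ010416) stood apart from SM30A. Their ratio was 0.0439, 0.202 and 0.0493 in ZT12 libraries, against 0.35, 0.325 and 0.296 in ZT0 libraries. The times did not overlap, and the mean difference was -2.09 on the log2 scale (-2.80 without ZT12 library 2), with an SD between libraries of 1.23 at ZT12 and 0.12 at ZT0. The exact interval was 0.0052 to 0.163 in ZT12 library 1 and 0.0059 to 0.184 in library 3, both below the lowest ZT0 interval (0.254 to 0.345), while that of library 2 (0.0893 to 0.401) overlapped all 3 ZT0 intervals. Of the 10 pairs among the 5 genes, 5 had ratios that did not overlap between times. Of these 5, 3 involved SM30, whose ZT12 values rest on 2, 9 and 2 counts. Nothing is read from this count, since the pairs share genes and the share among ratios of other genes was not computed. The 2 SM30 rows and the pair SM50 and ZJQ010322 could share reads where their sequences are alike, which was not checked here, so separate values within each pair are uncertain.

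**Figure D2:**
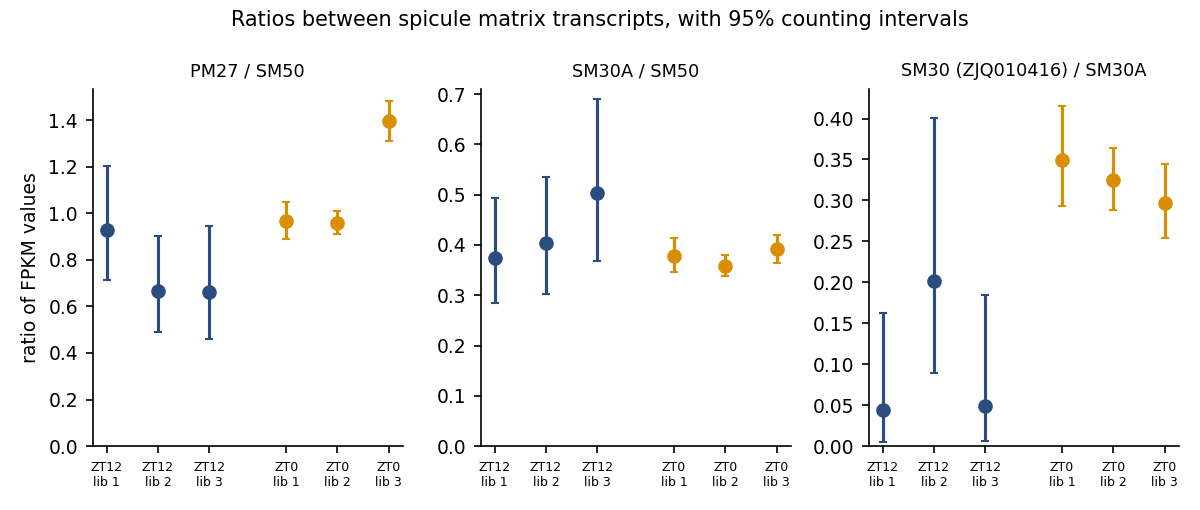
Ratio of FPKM values between spicule matrix genes in each library, ZT12 on the left and ZT0 on the right of each panel, with bars for the exact 95% counting interval. SM30A over SM50 overlaps between times, PM27 over SM50 is separated by a narrow gap, and SM30 over SM30A is 0.0439 to 0.202 at ZT12 and 0.296 to 0.35 at ZT0.

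The identifiers of the 6 genes fall in 2 groups, so the rows with numbers within 25 of a member were examined. An identifier number is not a genome position, and positions are not analysed here. Of the 94 such rows 56 were tested, and 2 fell at ZT12 while 54 did not pass (8 at an unadjusted p under 0.05). Their median log2 fold change was 0.24, with 37 above and 19 below 0, against a median of 0 over all genes tested. Of all genes tested, edgeR called 0.114% as lower at ZT12, and 1349 of 18456 had an unadjusted p under 0.05. Both called rows of the window are named after C-type lectins. ZJQ010319, named after a snake venom lectin subunit (snaclec), had 7.9, 8.5 and 7.54 CPM at ZT12, against 89, 184 and 127 CPM at ZT0, which is a log2 fold change of -4.06 (SE 0.31, edgeR adjusted p = 0.00587). Reg2 (ZJQ010301), named after lithostathine, a secreted C-type lectin-like protein of the mammalian pancreas, had 1.6, 2.09 and 1.65 CPM at ZT12, against 13, 31.1 and 22.1 CPM at ZT0 (-3.64, SE 0.43, adjusted p = 0.0366). ZJQ010319 lost its call without ZT12 library 1 (adjusted p = 0.0602) or 3 (0.0617), and Reg2 kept its call only without ZT0 library 1, with adjusted p from 0.0824 to 0.170 without any 1 of the others.

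Of the 7 rows in this window that carry a C-type lectin-like name, 6 were tested and all 6 had negative log2 fold changes, with a median of -3.23. The 50 tested rows without such a name had a median of 0.27, and 0 of them passed edgeR's test (4 at an unadjusted p under 0.05, and 0 called by DESeq2 among rows of the window without such a name). The most abundant of them were GAL3ST1 (ZJQ010343) at 0.79, RRAS2 (ZJQ010395) at 0.21, ANO4 (ZJQ010434) at 0.61 and ZJQ010430 at -0.43 on the log2 scale. The division of the window by name was not among the planned comparisons, and 9217 of the 18456 tested genes had log2 fold changes below 0. Rows with C-type lectin-like names were not all alike. The ones described next were chosen after their values were seen, so their p-values and intervals are description only. ZJQ010300, another snaclec-named row, had 0, 0 and 2 counts at ZT12, against 92, 203 and 139 counts at ZT0 (edgeR adjusted p = 0.0538, DESeq2 adjusted p = 1.36e-08). It passed the filter on low counts only through ZT0. From summed counts its ZT0 rate was 231 times the ZT12 rate, with a 95% interval of 63.5 to 1912. ZJQ010315 averaged 2.58 ± 1.7 CPM in ZT12 libraries and 18.3 ± 2.96 CPM in ZT0 libraries (SD, n = 3 each; edgeR adjusted p = 0.119, DESeq2 adjusted p = 1.86e-05). Reg1 (ZJQ010299) at -0.26 and ZJQ010318 at -0.43 on the log2 scale had overlapping libraries; the number of ZJQ010318 lies between those of PM27 and ZJQ010319. Gcnt1 (ZJQ010418), named after a glycosyltransferase that branches sugar chains on secreted proteins, had 0 counts in the 3 ZT12 libraries and 11, 10 and 21 counts at ZT0. It was at least 14.6-fold lower at ZT12 (floor of 3 counts over the ZT12 libraries) and was too low to be tested.

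**Figure D3:**
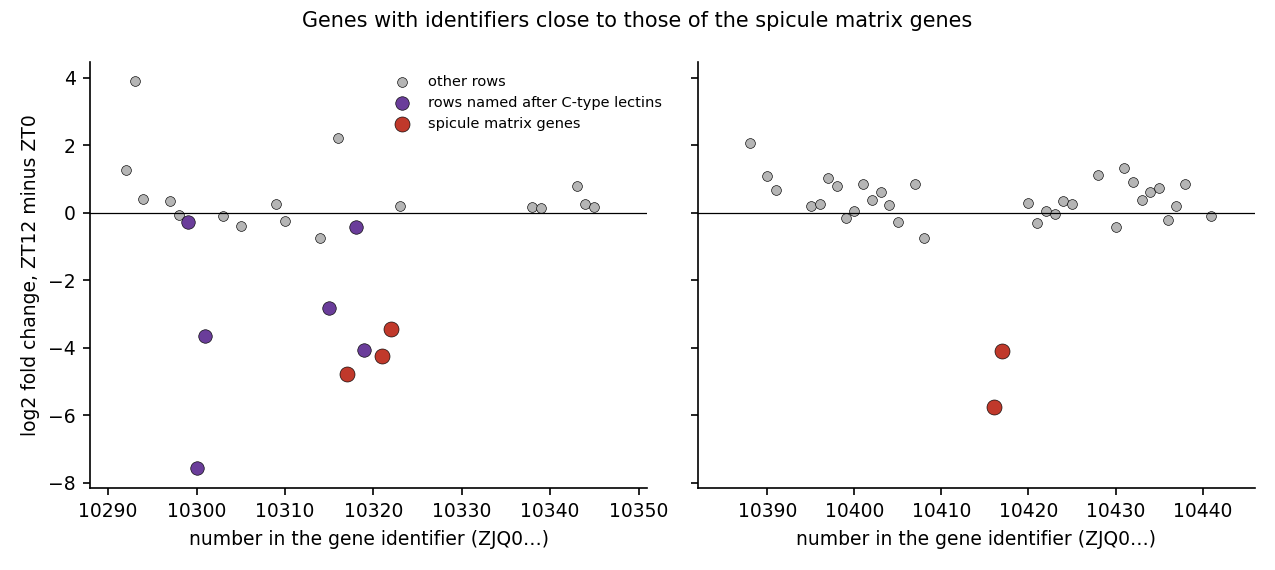
Log2 fold change (ZT12 minus ZT0) of tested rows against the number in their identifier, for the 2 groups of identifiers around the spicule matrix genes. Spicule matrix genes (red) lie between -5.75 and -3.46, C-type lectin-named rows (purple) between -7.58 and -0.26, and the other rows (grey) between -0.75 and 3.91, with a median of 0.27.

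ZJQ010319 kept a nearly fixed ratio to SM50 at ZT0. This ratio, per length, was 1.76, 1.79 and 2.27 in ZT12 libraries and 1.68, 1.66 and 1.66 in ZT0 libraries. The highest ZT0 ratio was 1.01 times the lowest, within the counting intervals (1.56 to 1.8, 1.58 to 1.74 and 1.56 to 1.76), while SM50 itself varied 2.09-fold. Reg2 had ratios to SM50 of 0.532, 0.659 and 0.742 at ZT12 and 0.367, 0.42 and 0.431 at ZT0. The ratios of both rows did not overlap between times, but the counting intervals of ZJQ010319 in ZT12 libraries 1 (1.40 to 2.21) and 2 (1.41 to 2.27), and that of Reg2 in ZT12 library 1 (0.362 to 0.765), covered all 3 ZT0 ratios.

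Over all C-type lectin-like names outside the spicule matrix genes, 24 of 48 rows were tested, 3 fell at ZT12 and 21 did not pass (8 of the 24 at an unadjusted p under 0.05). Of all genes tested, edgeR called 0.114% as lower at ZT12, and 1349 of 18456 had an unadjusted p under 0.05. The list had a median of -0.29 (14 below and 10 above 0). The third called gene was ZJQ009998, named after a snake C-type lectin, with 6, 2 and 0 counts in ZT12 libraries 1, 2 and 3, against 162, 328 and 163 counts at ZT0. Its log2 fold change was -6.35 (SE 0.69, edgeR adjusted p = 0.00587), and the call was lost without ZT12 library 1 (0.112), 2 (0.0557) or 3 (0.0617). ZJQ009998 passed the filter on low counts only through ZT0. Outside the identifier window 1 of 18 tested rows was called and the median was 0.15. The most abundant lectins of the list did not pass: echinoidin genes, which code for lectins of the coelomic fluid, had log2 fold changes of -2.01 (ZJQ019150, adjusted p = 0.899), -0.31 (ZJQ020677, 0.864), 0.81 (ZJQ014536, 0.65) and 0.31 (ZJQ014534, 0.859). The level of ZJQ019150 at ZT12 came from 1 library, with 1, 68151 and 0 counts in libraries 1, 2 and 3, against 68766, 156514 and 57570 counts at ZT0. A pair of other rows, chosen after their values were seen, had large differences that did not pass: the echinoidin gene ZJQ008251 had 11, 6 and 20 counts at ZT12, against 146, 430 and 181 counts at ZT0 (-4.39, adjusted p = 0.0645). CLEC6A (ZJQ002468), a C-type lectin domain gene, was higher at ZT12, with 1153, 376 and 1635 counts at ZT12, against 0, 45 and 1 counts at ZT0 (6.02, adjusted p = 0.109).

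Other genes of the skeleton-forming programme were taken as 3 lists, of which 40 of 56 rows were tested. Of these 40, 4 fell at ZT12 and 36 did not pass (9 of the 40 at an unadjusted p under 0.05), and the median log2 fold change was -0.06, against 0 over all genes. Of all genes tested, edgeR called 0.114% as lower at ZT12, and 1349 of 18456 had an unadjusted p under 0.05. Among 6 tested genes for mesenchyme-specific cell surface glycoproteins, of the family on the surface of skeleton-forming cells, 2 fell: ZJQ008708 (log2 fold change -5.24, edgeR adjusted p = 0.0396) and ZJQ008711 (-4.04, adjusted p = 0.0396). The other 4 were at -1.96 (ZJQ008606), 0.02 (ZJQ008710), 0.41 (ZJQ008669) and 0.74 (ZJQ008025). ZJQ008708 had 12, 0 and 4 counts at ZT12 and passed the filter on low counts only through ZT0. Both glycoprotein calls changed when 1 library was left out. ZJQ008711 lost its call without any 1 library (adjusted p from 0.0593 to 0.188), and ZJQ008708 kept it only without ZT0 library 1. Their log2 fold changes then ranged from -4.74 to -3.75 for ZJQ008711 and from -6.52 to -4.71 for ZJQ008708. Among 11 tested carbonate supply genes, Ca7 (ZJQ025131, a carbonic anhydrase, which interconverts carbon dioxide and bicarbonate) and SLC26A5 (ZJQ003578, of an anion transporter family) fell by 4.48 and 5.48 on the log2 scale (edgeR adjusted p = 0.00668 and 0.00807). Ca7 averaged 1.53 ± 0.669 CPM in ZT12 libraries and 34.7 ± 8.41 CPM in ZT0 libraries, and SLC26A5 averaged 0.363 ± 0.218 and 16.7 ± 6.09 CPM (SD, n = 3 each). Ca7 lost its call without ZT12 library 1 (0.0602) or 3 (0.0617), and SLC26A5 without any 1 ZT12 library (0.0533 to 0.077). SLC26A5 had 14, 8 and 3 counts at ZT12 and passed the filter on low counts only through ZT0. Ca2 (ZJQ017234), the most abundant carbonic anhydrase, averaged 909 ± 184 CPM in ZT12 libraries and 954 ± 136 CPM in ZT0 libraries (SD, n = 3 each; log2 fold change -0.07), and the bicarbonate exchanger SLC4A10 (ZJQ019501) was at -0.05, with the anion exchanger rows Slc4a3 at 0.33 (ZJQ018831) and -0.23 (ZJQ018830).

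Regulators of the skeleton-forming network did not pass edgeR's test: 0 of 23 tested rows were called (3 at an unadjusted p under 0.05), with a median log2 fold change of -0.07. These 3 were FGFR (ZJQ007108) at -0.88 (adjusted p = 0.298), RUNX2 (ZJQ022781) at -1.01 (0.538) and TWIST2 (ZJQ006195) at -1.40 (0.649), each with all ZT12 libraries below all ZT0 libraries, as in 6.33% of all tested genes. With 0.130% of all tested genes called, nothing is read about regulators from 0 calls among 23 rows. ETS1 (ZJQ001892), a transcription factor that activates spicule matrix genes in S. purpuratus embryos, averaged 619 ± 106 CPM in ZT12 libraries and 875 ± 236 CPM in ZT0 libraries (SD, n = 3 each; log2 fold change -0.50, adjusted p = 0.721). ERG (ZJQ001896), a related factor of the same network, was at -0.15 (adjusted p = 0.909), JUN (ZJQ004774) at 0.60 (0.742) and FOXN3 (ZJQ001453) at -0.04 (0.979). Outside the naming rule, as with those 3, ALX4 (ZJQ012483), named after the family of the skeletogenic homeobox factor alx1, had 29, 9 and 46 counts at ZT12 and 17, 73 and 38 counts at ZT0 (-0.68, adjusted p = 0.883). The receptor gene KDR (ZJQ017569), whose family receives the VEGF signal that guides skeleton-forming cells, was at -0.22 (adjusted p = 0.939).

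**Figure D4:**
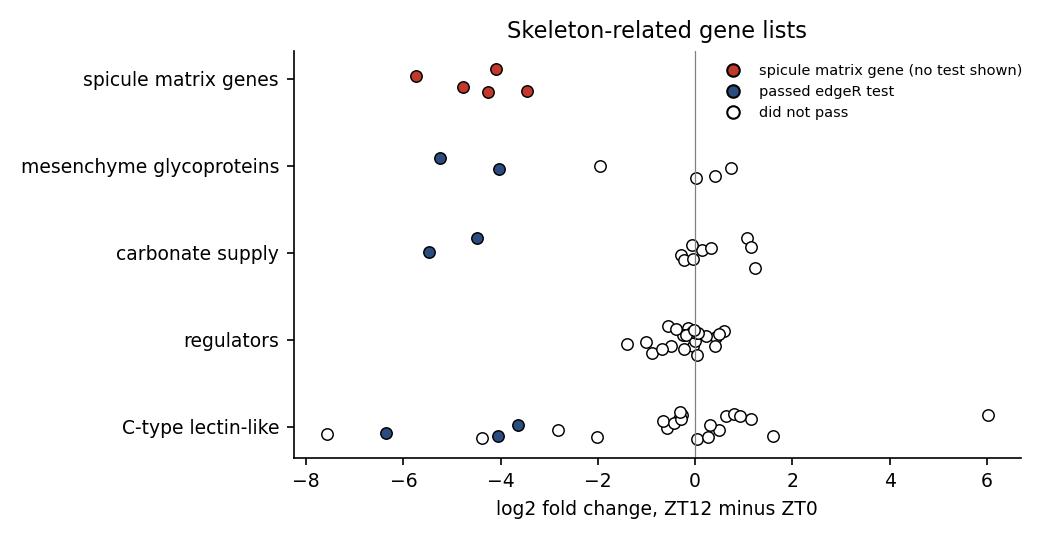
Log2 fold change (ZT12 minus ZT0) of each tested gene of the spicule matrix genes and of 4 related lists, with filled blue points for genes that passed edgeR's test. The glycoprotein, carbonate supply and C-type lectin-like lists each hold 2 or 3 called genes, their other members run from -7.58 to 6.02, and 0 of 23 regulators passed. Of all tested genes 0.130% passed.

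Profiles over the 6 libraries were compared by the root mean square difference, in log2 CPM centred per gene, from the mean profile of the 4 genes taken by identifier. This is a description and carries no test, since any gene far lower at ZT12 comes near. The distances of the 4 genes themselves were 0.213 for SM50, 0.276 for PM27, 0.314 for SM30A and 0.538 for SM30, and the median over all tested genes was 2.36. The 10 nearest other genes lay at 0.328 to 0.557, and the next one at 0.576. In order they were ZJQ010319 (0.328), Ca7 (0.365), ZJQ013051 (0.376), HEBP2 (ZJQ009967, 0.438), Mmp14 (ZJQ024368, 0.452), ZJQ008706 (0.456), SLC26A5 (0.507), lncRna00767 (0.536), ZJQ008331 (0.554) and Reg2 (0.557). HEBP2 and lncRna00767 had 0 counts in every ZT12 library, so their distances depend on the prior count of 2 used for log2 CPM. Of the 10 nearest genes, 5 passed edgeR's test, which a choice by this contrast favours, and 4 have neither a symbol nor a description.

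ZJQ013051, 1 of those 4, had 0.0818, 0.143 and 0.183 CPM at ZT12, against 3.99, 5.38 and 4.32 CPM at ZT0, a log2 fold change of -5.04 (edgeR adjusted p = 0.00587). Its call was lost without any 1 ZT12 library (adjusted p from 0.056 to 0.0928). ZJQ013051, ZJQ008706, ZJQ008331 and lncRna00767, and Mmp14 and HEBP2 described next, passed the filter on low counts only through ZT0. Mmp14, named after a membrane-bound matrix metalloproteinase, had 0, 1 and 0 counts at ZT12 and 89 counts over the ZT0 libraries (adjusted p = 0.228). HEBP2, named after a heme-binding protein, had 0 counts at ZT12 and 88 counts over the ZT0 libraries, and was at least 30.1-fold lower at ZT12 (floor of 3 counts over the ZT12 libraries; adjusted p = 0.263). When profiles were centred within each time, so that the difference between times played no part, ZJQ010319 ranked 59th and Reg2 41st nearest among the tested genes, and 0 of the 10 were among the 10 nearest. The others ranked from 337th (Mmp14) to 9526th (ZJQ008331), with Ca7 2808th and SLC26A5 2956th. The within-time distance of ZJQ008331 (0.537) was above the median of all tested genes (0.527).

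**Figure D5:**
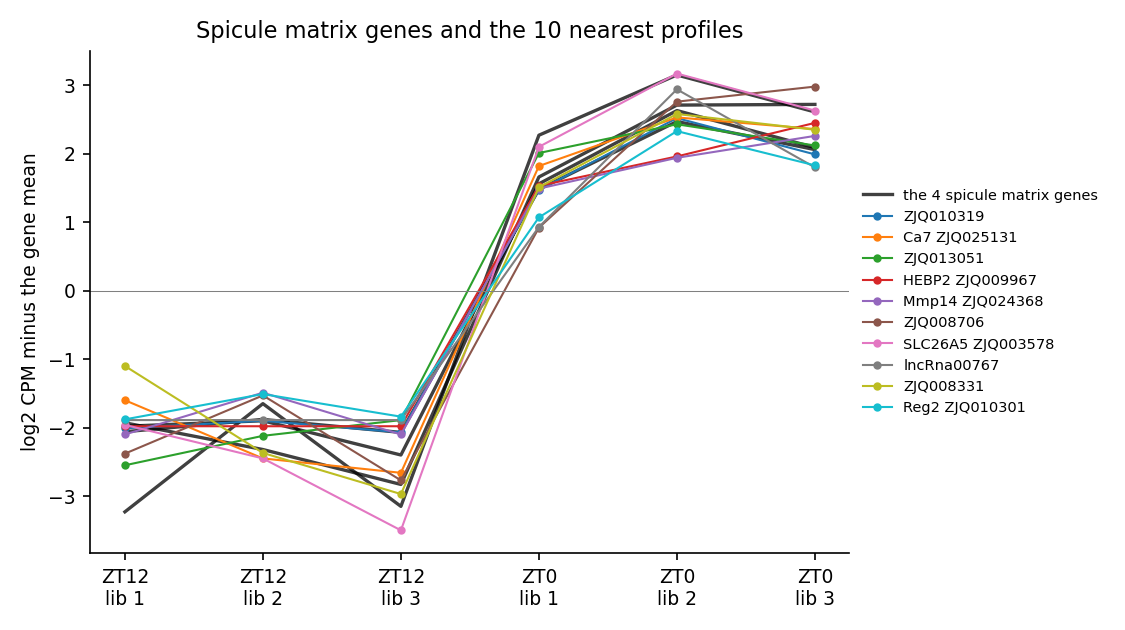
Log2 CPM minus the gene's own mean in each library (ZT12 left, ZT0 right; lines only join the values of a gene) for the 4 spicule matrix genes taken by identifier (black) and the 10 genes with the nearest profiles. All lie between -3.5 and -1.1 at ZT12 and between 0.92 and 3.17 at ZT0, and all are lowest among ZT0 libraries in library 1.

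Markers of other tissues gave these values, and their part in the differences above was not tested. Summed over the coelomocyte marker list, libraries had 14534 to 19718 CPM at ZT12 and 20842 to 21984 CPM at ZT0, so every ZT12 library was below every ZT0 library. Its median log2 fold change was 0.03, and without the echinoidin gene ZJQ019150, left out after its values were seen, the sums overlapped, at 14534 to 17521 CPM in ZT12 libraries and 15299 to 17980 CPM in ZT0 libraries. The muscle list (14 rows, 11 tested, 0 rows at 0 counts) had 1598 to 1739 CPM at ZT12 and 1231 to 1811 CPM at ZT0, with a median log2 fold change of 0.53 and 10 of 11 tested genes above 0. The ciliated cell list (52 rows, 51 tested, 0 at 0 counts) had 464.5 to 829 CPM at ZT12 and 453 to 855 CPM at ZT0, with a median of 0.19. The germline list (10 rows, 5 tested, 1 at 0 counts) had 282 to 694 CPM at ZT12 and 182 to 517 CPM at ZT0, with a median of 0.20. Within these sums 1 gene, the major yolk protein ZJQ009650, had 511, 248 and 111 CPM in ZT12 libraries and 29.9, 358 and 173 CPM in ZT0 libraries. The sums are therefore not read as germline content. The gut list (73 rows, 37 tested, 5 at 0 counts) had 3832 to 4441 CPM at ZT12 and 3977 to 5156 CPM at ZT0, with overlapping sums but a median log2 fold change of 1.79 over its tested members, 31 of them above 0. Its most abundant gene, a trypsin (ZJQ009370, a digestive protease), averaged 3333 ± 119 CPM in ZT12 libraries and 3998 ± 627 CPM in ZT0 libraries (SD, n = 3 each). Collagens, metalloproteinases and their inhibitors (46 rows, 30 tested, 4 at 0 counts), which skeleton-bearing tissue also uses, had 10231 to 13415 CPM at ZT12 and 9782 to 17774 CPM at ZT0, with a median of 0.10. TIMP3 (ZJQ003888), a metalloproteinase inhibitor, was at -0.45, and the collagen genes COL3A1 (ZJQ004216) and COL2A1 (ZJQ004215) were at 0.90 and 1.03 on the log2 scale (edgeR adjusted p = 0.789 and 0.787). COL3A1 had 2522, 423 and 906 CPM in ZT12 libraries 1, 2 and 3, against 519, 758 and 789 CPM at ZT0. COL2A1 had 2596, 332 and 834 CPM at ZT12, against 431, 640 and 772 CPM at ZT0. For both, ZT12 library 1 was the highest and ZT12 library 2 lay below every ZT0 library. The rows at 0 counts in all libraries were 3 echinoidin rows, 4 matrix rows (Mmp21, Col7a1 and 2 MMP1 rows), the germline gene Nanos1, and 5 gut rows. In each of these 6 lists 0 genes passed edgeR's test, and an unadjusted p under 0.05 was found for 4 coelomocyte, 1 muscle, 1 ciliated cell, 0 germline, 17 gut and 8 matrix genes. Of all genes tested, edgeR called 0.130%, and 1349 of 18456 had an unadjusted p under 0.05.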

How the data were processed

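RNA-seq libraries of coelomocytes at ZT12 and ZT0 (3 each) were used. Per the labels' protocols, RNA was extracted with TRIzol and libraries were made with a VAHTS kit; the tools fastp, HISAT2 and HTSeq are named, per the submitters' processing notes. Their versions, the build, the annotation and the strand setting are not stated in the labels or headers. The authors deposited whole-number counts per gene model, not normalized, and FPKM values. In all 109307 values with at least 10 counts, the deposited FPKM equalled the counts over library total and 1 length per gene, within 0.1%, which gave the lengths used. Symbols and descriptions are the authors'.

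Counts were tested with edgeR 4.0.16 (R 4.3.3): filterByExpr (minimum count 10, minimum total 15), TMM, glmQLFit with legacy = FALSE and glmQLFTest, Benjamini-Hochberg over 18456 genes, threshold 0.05. SE is the absolute log2 fold change over the square root of F. CPM uses TMM-scaled library sizes. DESeq2 1.42.0 and limma 3.58.1 were alternatives. The steps were tested on simulated data.

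The members and lists were chosen with earlier results of these data known. Lists were name patterns, and 623 rows with unrelated names were removed on names alone, 508 of them from the germline pattern, where the letters of bindin also match inside the word binding. Named genes were all members, called genes and up to 4 abundant genes of each list and of the identifier window, and the 10 nearest profiles; of the abundant genes of the marker and matrix lists, only the first few are given. With 3 libraries a time the smallest p of an exact permutation test is 0.1, so ratios were compared by their ranges. Profiles used a prior count of 2.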

Additional observations from a re-analysis of the deposited data

How the results depend on the processing

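All 5 spicule matrix genes with reads kept lower levels at ZT12 under every alternative run. On log2(FPKM + 1), which understates low genes, the log2 fold changes were -3.29 for SM30A, -2.95 for SM30 and -1.56 for ZJQ010322. Leaving out 1 library at a time gave -4.48 to -3.95 for SM50, -5.06 to -4.58 for PM27, -4.31 to -3.83 for SM30A, -6.86 to -5.34 for SM30 (the lowest without ZT12 library 2) and -4.12 to -2.92 for ZJQ010322. The log2 ratio of member shares of counts (-4.31) ranged from -4.58 to -3.99. The log2 difference in the ratio of SM30 to SM50 ranged from -2.59 to -1.43, SM30 over SM30A from -2.80 to -1.69, PM27 over SM50 from -0.71 to -0.37, SM30A over SM50 from 0.05 to 0.26, and ZJQ010322 over SM50 from -0.09 to 1.48, within its spread.

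Calls changed with the tool and with leaving out 1 library, and the cause was not tested. Over all genes, against 24, DESeq2 called 259, edgeR with legacy = TRUE 10, limma-voom 0 (1078 at an unadjusted p under 0.05) and edgeR with the replicate block 13; without 1 library 0 to 24 were called, 0 without ZT12 library 1 or 3. Of the 40 skeleton programme genes, against 4, plain library sizes called 2, legacy = TRUE 1, limma-voom 0 (8), log2(FPKM + 1) 1, log2(FPKM + 0.1) 2 and the replicate block 0 (9); without 1 library 0 to 3. Of the identifier neighbours, against 2, plain library sizes called 1, DESeq2 4, legacy = TRUE 1, limma-voom 0 (7), the replicate block 1 and a window of 10 identifiers 1; without 1 library 0 to 2. The replicate block is an arbitrary pairing here: same-numbered libraries deviated from their time's mean with correlations across genes of -0.05, 0.02 and 0, and the labels do not say that a number is shared. ZJQ010319 kept its call without ZT12 library 2 or any ZT0 library and lost it without ZT12 library 1 (adjusted p = 0.0602) or 3 (0.0617). With a prior count of 0.5, 8 of the 10 nearest profiles were shared, and HEBP2 and ZJQ008331 dropped out. At ZT12, depth limits SM30 and ZJQ010322, with 13 and 14 counts.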
